A study of Mus musculus with 6 samples.

Results

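The genes described here are the large subunit ribosomal proteins, the proteins of the cytosolic 60S subunit, taken as a fixed list of 45 symbols and matched to the Ensembl identifiers of the deposited table. Of these, 43 had a row and are called the 60S members below, out of 23474 identifiers in all. The mRNA levels of Rpl13 and Rpl24 were not analysed here. The study measured liver mRNA by sequencing in male C57BL/6J mice, an inbred strain with no engineered allele named. BT mice received a high-fat diet with 1.5% by weight of an extract of Bangpungtongseong-san, an East Asian formula of many herbs, and HFD mice received the high-fat diet alone. Both diets started when the mice were 5 weeks old and lasted 12 weeks, so that livers came from mice of 17 weeks, and 3 libraries per diet were analysed. Each diet was fed to 10 mice. Nothing in the labels ties a library to 1 animal, and pooling is possible, so the p-values below concern only the variation among libraries.

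The ribosome makes every cellular protein. Its large subunit joins amino acids in the peptidyl transferase centre, which is built of RNA, and its proteins stabilise that RNA, line the tunnel through which the new chain leaves, bridge to the small subunit and recruit elongation factors. The mRNAs of ribosomal proteins are short and abundant, begin with a run of pyrimidines (the 5′TOP motif, for terminal oligopyrimidine) and are translated under the control of the growth kinase complex mTORC1. In liver, an organ that secretes most plasma proteins, they are among the highly expressed transcripts.

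Levels are given as FPKM, fragment counts scaled by transcript length and by the mapped fragments of a library, which can be compared between genes. By the low values of the table, libraries held roughly 13.8 to 15.8 M fragments, and a 60S member rested on an estimated 703 to 6825 fragments per library. Summed FPKM ran from 783151 to 930139, with HFD replicate 2 highest. In HFD replicate 3 the table lists 0 for Alb and mt-Co1, both high in the other 5 libraries, so a listed 0 can be a failed estimate here. No 60S member was listed at 0. Hepatocyte markers summed to between 35194 and 37720 FPKM in BT livers and between 14207 and 45175 FPKM in HFD livers, the lowest being the library with Alb at 0. The codes of the libraries differ by a letter between the diets, so that a difference between sets of libraries and the diet cannot be told apart.

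Across the list, 60S mRNAs were lower with BT. The FPKM of the 43 members summed to 7274, 7765 and 7476 in BT livers, against 10429, 13022 and 10256 in HFD livers. Every BT library was below every HFD library, and the means were 7505 ± 247 FPKM with BT and 11236 ± 1550 FPKM with HFD (SD, n = 3 each), a ratio of 0.668. As a share of all FPKM, the members made up 0.929%, 0.955% and 0.928% in BT livers and 1.27%, 1.40% and 1.26% in HFD livers. The total of HFD replicate 3 lacks Alb and mt-Co1, which raises its share of 1.26%. In the other libraries Alb had 22791 to 27895 FPKM and mt-Co1 had 44334 to 53659 FPKM, so their shares do not have this gap. In bulk tissue, fewer cells of a type and less RNA per cell cannot be told apart.

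**Figure D1:**
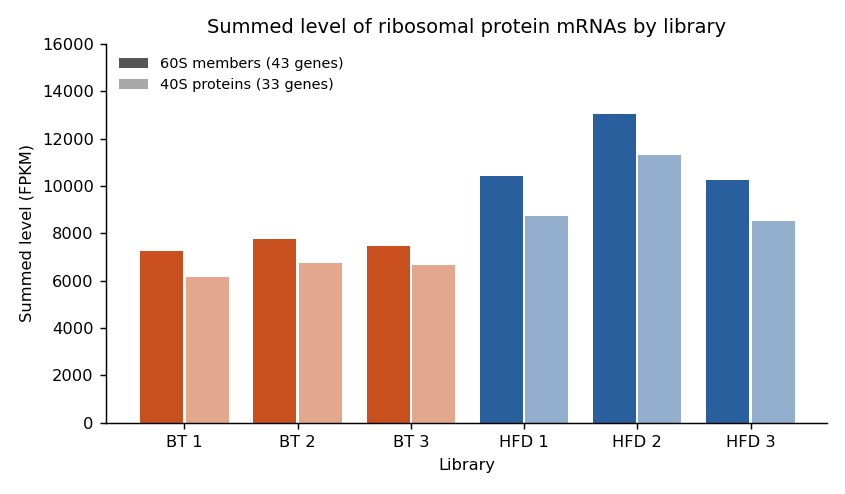
Summed FPKM of the 43 large subunit members (solid bars) and of 33 proteins of the small subunit (pale bars) in each library, BT in orange and HFD in blue. The large subunit sums lie between 7274 and 7765 in BT libraries and between 10256 and 13022 in HFD libraries.

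Gene by gene, 28 of the 43 members were lower with BT and none was higher (limma on log2(FPKM + 1), Benjamini-Hochberg adjusted p under 0.05 over the 10476 genes that averaged 1 FPKM or more). All 43 members passed that filter. Over all genes tested, 7.33% were lower and 6.01% were higher by the same rule. Without adjustment, 37 members had a p under 0.05 in the lower direction and 0 in the higher one. The 28 that fell were 24.0% to 56.7% lower with BT, or −1.20 to −0.39 on the log2(FPKM + 1) scale, with adjusted p from 0.00644 to 0.0466. Over the list, 40 changes were negative and 3 positive, beside 40.8% negative over all genes, and the median change was −0.59, beside 0.07 over all genes tested. In 37 members the 3 BT values were all below the 3 HFD values, a pattern found in 16.1% of all genes tested. The other 6, in which the diets overlapped, were Rpl3, Rpl4, Rpl5, Rpl8, Rpl12 and Rplp0.

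The libraries differed in how alike they were within a diet. HFD replicate 2 held the highest value of 37 members and HFD replicate 1 that of the other 6, while no BT library was highest for any member. The coefficient of variation was smaller among BT than among HFD libraries in 41 of the 43 members, with medians of 4.32% and 14.5%, beside medians of 9.02% and 14.6% over all genes tested. The count of calls depended on the libraries kept. Without BT replicate 1 only 3 members stayed past the threshold (1.19% of all genes were lower in that fit), and without BT replicate 2 there were 11 (2.14%). There were 19 without BT replicate 3 (3.67%) and 29, 23 and 26 without HFD replicates 1, 2 and 3 (7.75%, 3.78% and 6.51%). Rpl27, Rpl39 and Rpl41 passed in all 6 of these fits.

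**Figure D2:**
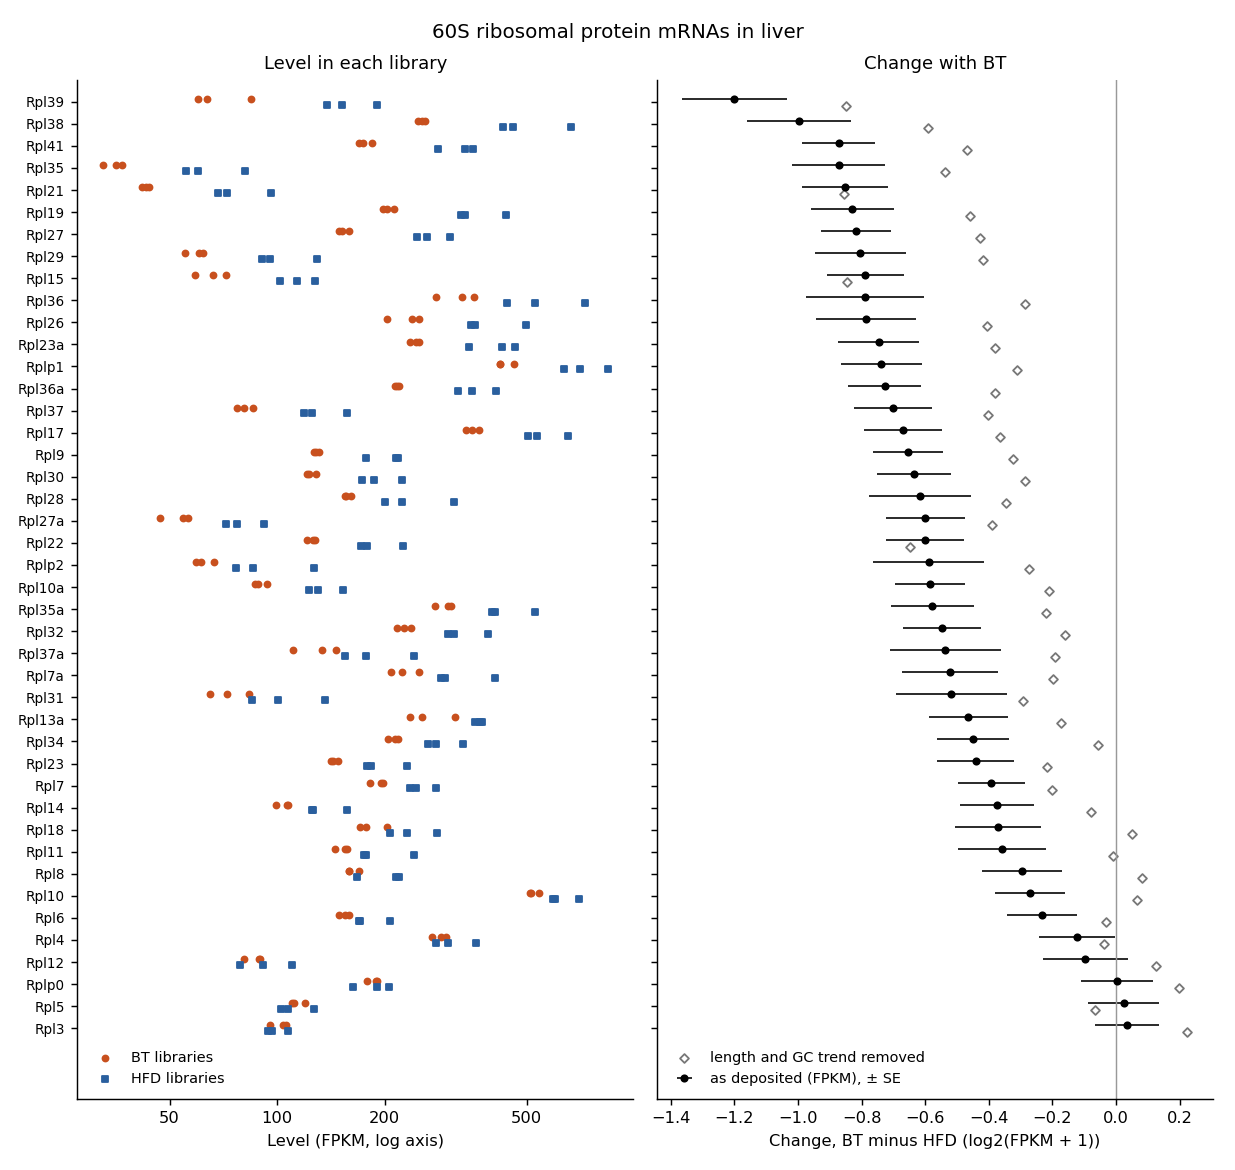
Left, FPKM of each large subunit member in each library (log axis), BT as orange circles and HFD as blue squares. Right, the change with BT (BT minus HFD, log2(FPKM + 1)) with its SE in black and, as open diamonds, after the trend of change with transcript length and GC content over all genes was removed. Members are ordered by change: Rpl39, Rpl38 and Rpl41 lie lowest, and Rplp0, Rpl5 and Rpl3 lie near 0.

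Members at the polypeptide exit tunnel and its rim, where the nascent chain emerges and targeting factors dock, held the largest change. Of 7 such members, 5 fell, beside 28 of all 43 members and 7.33% of all genes tested. The groups by role below share this background, and differences between them were not tested. Rpl39, a very small protein in the tunnel wall, had 59.9, 63.6 and 84.5 FPKM in BT livers, against 152, 190 and 138 FPKM in HFD livers. All BT libraries were far below all HFD libraries, and the change was −1.20 ± 0.16 (SE, adjusted p = 0.0071). Rpl35, which sits at the tunnel rim beside the docking site of the signal recognition particle, had 36.8, 32.5 and 35.5 FPKM with BT and 55.6, 81.1 and 59.98 FPKM with HFD. That was the lowest mean level of all members, and it fell by 0.87 ± 0.15 on the log2 scale (adjusted p = 0.0129). Rpl17, Rpl23a and Rpl26, which also surround the exit, fell by 0.67, 0.75 and 0.79. Rpl31, another rim protein, changed by −0.52 ± 0.18 without passing (adjusted p = 0.0825). Rpl4, whose long loop reaches into the tunnel, had 272, 288 and 296 FPKM with BT and 360, 301 and 278 FPKM with HFD. Its diets overlapped, and the change was −0.12 ± 0.12 (adjusted p = 0.503).

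The value for Rpl39 depends on how fragments were divided between it and a nearly identical pseudogene. Rpl39 lies on the minus strand at chrX:37082520-37085402 (GRCm38) and is spliced, whereas Rpl39-ps is an intronless copy on the plus strand at chr15:102635038-102635188. The 151 bases they share are printed here because a single base, in capitals, tells them apart. Counted from 1 at the first base printed, the difference is T97C, with the base of Rpl39 first.
Rpl39: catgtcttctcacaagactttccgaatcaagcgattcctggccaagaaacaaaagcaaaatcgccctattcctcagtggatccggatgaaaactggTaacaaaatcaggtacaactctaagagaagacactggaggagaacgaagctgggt
Rpl39-ps: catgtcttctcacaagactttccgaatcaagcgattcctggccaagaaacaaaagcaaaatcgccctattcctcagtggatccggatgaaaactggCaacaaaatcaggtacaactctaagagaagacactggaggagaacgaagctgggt

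In the deposited table the pseudogene was the higher of the pair in all 6 libraries. Rpl39-ps had 312, 316 and 254 FPKM in BT livers, against 216, 363 and 259 FPKM in HFD livers, and its diets overlapped. The annotated lengths are 151 bases for Rpl39-ps and 612 for Rpl39, so a fragment counts for more FPKM in the pseudogene. With the copies of Rpl39 scaled to its length and added to it, the sum was 137, 142 and 147 FPKM with BT and 205, 280 and 202 FPKM with HFD. The diets did not overlap, and this sum fell by 0.67 ± 0.14 (adjusted p = 0.0212). The scaling is approximate, since FPKM divides by an effective length. FPKM added without scaling, in which the short copy weighs most, changed by −0.25 ± 0.16 (adjusted p = 0.297).

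Such copies were searched for all members by sequence, at 90% identity or more, with an alignment at least 70% as long as the transcript of the copy. The table held 55 genes of this kind for 23 members. Of these, 24 are listed at 0 in every library, 12 reached a mean of 1 FPKM, and 1, Gm7536, was lower with BT. Gm7536, an intronless copy of Rpl27a at chr3:24333068-24333511 (GRCm38), had 172, 189 and 151 FPKM in BT livers, against 268, 371 and 266 FPKM in HFD livers. It was higher in FPKM than Rpl27a itself in every library. With copies scaled by length and added, Rpl27a fell by 0.72 ± 0.13 (adjusted p = 0.0157), and without scaling by 0.76 ± 0.14 (adjusted p = 0.0160). Rpl35 with its copies, Gm2000 among them, fell by 0.65 ± 0.15 when scaled (adjusted p = 0.0299), and without scaling changed by −0.51 ± 0.16 (adjusted p = 0.0622). With copies added throughout, 28 members were lower when scaled (7.33% of all genes) and 26 without scaling (7.31%). Overlap with another annotated gene covered at least 25% of exon bases in 5 members (Rpl5, Rpl13a, Rpl23a, Rpl31 and Rpl35), whose values are uncertain for that reason, since no strand setting is given in the sources used here.

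**Figure D3:**
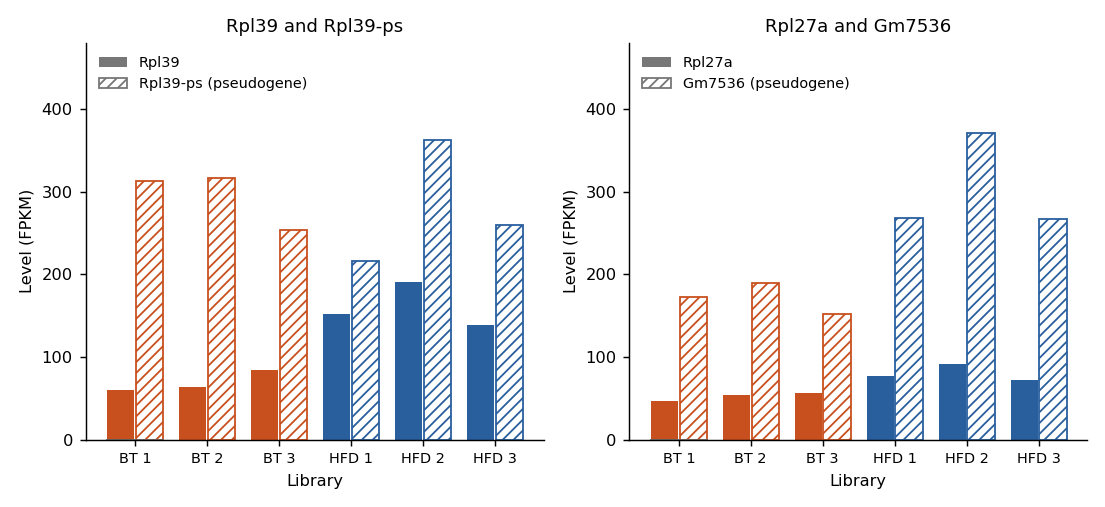
FPKM of Rpl39 and its pseudogene Rpl39-ps (left) and of Rpl27a and its pseudogene Gm7536 (right) in each library, side by side, member solid and pseudogene hatched, BT in orange and HFD in blue. Bars of a pair are per length and do not add up to fragments. Rpl39-ps overlaps between the diets, at 254 to 316 in BT and 216 to 363 in HFD libraries, and Gm7536 does not, at 151 to 189 in BT and 266 to 371 in HFD libraries.

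Members that bridge to the 40S subunit fell in 4 of 5 cases. Rpl41, the smallest ribosomal protein with 25 residues, which lies at the interface of the subunits, had 175, 184 and 170 FPKM in BT livers, against 337, 355 and 283 FPKM in HFD livers. Its change of −0.87 ± 0.11 had the lowest adjusted p of any member (0.0064). Rpl19, whose long helix reaches the small subunit, had 198, 212 and 204 FPKM with BT and 336, 439 and 328 FPKM with HFD, a change of −0.83 ± 0.13 (adjusted p = 0.0111). In both genes the BT libraries lay close together and well under the HFD libraries. Rpl23 and Rpl30 fell by 0.44 and 0.64. Rpl8, which also forms a bridge and lies near the peptidyl transferase centre, changed by −0.30 ± 0.13 (adjusted p = 0.142).

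Of the stalk and its base, 1 of 4 members fell. The stalk recruits the elongation factors and consists of Rplp0, which anchors it to the ribosomal RNA, and dimers of Rplp1 and Rplp2. Rplp1 had 421, 460 and 421 FPKM in BT livers, against 705, 845 and 638 FPKM in HFD livers, the highest mean level of all members, and fell by 0.74 ± 0.13 (adjusted p = 0.0137). Rplp2, its partner, had 66.4, 61.1 and 59.3 FPKM with BT and 85.5, 127 and 76.8 FPKM with HFD, a change of −0.59 ± 0.18 that missed the threshold (adjusted p = 0.0579). Rplp0 had 189, 190 and 179 FPKM with BT and 206, 190 and 163 FPKM with HFD. Its libraries overlapped fully and the change was 0.00 ± 0.11 (adjusted p = 0.987). Rpl12, at the base of the stalk, had 80.8, 89.1 and 89.6 FPKM with BT and 78.6, 110 and 91.2 FPKM with HFD (−0.10 ± 0.13, adjusted p = 0.640). The differences between these changes were not tested.

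Neither protein of the 5S ribonucleoprotein passed. Rpl5 and Rpl11 bind 5S ribosomal RNA, enter the subunit with it and, when free, inhibit the p53 ligase MDM2. Rpl5 had 110, 111 and 119 FPKM in BT livers, against 127, 107 and 102 FPKM in HFD livers, so that the diets overlapped and the change was 0.02 ± 0.11 (adjusted p = 0.897). Rpl11 had 146, 157 and 155 FPKM with BT and 175, 241 and 177 FPKM with HFD. Its BT libraries were all below its HFD libraries, but the change of −0.36 ± 0.14 did not pass (adjusted p = 0.114).

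Among the members near the peptidyl transferase centre and the tRNA sites, 1 of 3 fell. The groups by role also differed in length. Median coding length was 642 bases here and 712.5 in the 5S ribonucleoprotein. It was 435 at the tunnel and 420 in both the bridge group and the stalk group. Rpl36a, which contacts the exit-site tRNA, fell by 0.73 ± 0.11 (adjusted p = 0.0111). Rpl10, which joins the subunit last, in the cytoplasm, had 514, 542 and 512 FPKM in BT livers, against 601, 703 and 594 FPKM in HFD livers. It was the second most abundant member, with no overlap of the diets, and changed by −0.27 ± 0.11 (adjusted p = 0.127). Rpl3, which reaches to the catalytic centre and joins early in assembly, had 104, 106 and 95.9 FPKM with BT and 107, 97.0 and 94.5 FPKM with HFD. The diets overlapped, and its change of 0.03 ± 0.10 was the most positive of all members (adjusted p = 0.830).

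Rpl38, Rpl22 and Rpl13a, 3 members that are also known for selective or extra-ribosomal roles, fell, whereas Rpl5 and Rpl11, which have such a role too, did not pass. Rpl38, needed in mice for the translation of Hox mRNAs, had 259, 255 and 248 FPKM in BT livers, against 429, 667 and 458 FPKM in HFD livers (−0.996 ± 0.16, adjusted p = 0.0121). BT libraries were nearly equal while HFD replicate 2 stood above the other HFD libraries. Rpl22, required for T-cell development in mice, had 122, 128 and 126 FPKM with BT and 171, 225.2 and 178 FPKM with HFD (−0.60 ± 0.12, adjusted p = 0.0206). Rpl22l1, its paralog, is kept low by Rpl22 in mice, and its change was 0.09 ± 0.19 (adjusted p = 0.776). Rpl13a, part of a translational silencing complex in human monocytes, had 236, 255 and 315 FPKM with BT and 376, 371 and 358 FPKM with HFD (−0.46 ± 0.13, adjusted p = 0.0442). Here BT replicate 3 lay nearest to the HFD libraries, and other genes overlap 35.4% of the exon bases of Rpl13a.

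Of the 19 remaining members, which form the body and surface of the subunit, 14 fell, with a median change of −0.59 over the 19. Rpl21, a protein near the 5S RNA, had 42.9, 43.9 and 41.8 FPKM in BT livers, against 72.4, 96.5 and 68.4 FPKM in HFD livers, the second lowest mean level of all members (−0.85 ± 0.14, adjusted p = 0.0114). Rpl27 had 149, 159 and 152 FPKM with BT and 247, 306 and 263 FPKM with HFD (−0.82 ± 0.11, adjusted p = 0.0068). Rpl29, whose loss in mice gives small animals with fragile bones, had 55.3, 61.9 and 60.4 FPKM with BT and 95.5, 130 and 91.0 FPKM with HFD (−0.81 ± 0.14, adjusted p = 0.0145). All 3 genes had BT libraries that differed little from each other and lay below every HFD library. The 5 that did not pass were Rpl6, Rpl7a, Rpl14, Rpl18 and Rpl37a, with adjusted p from 0.0540 to 0.1799, all with negative changes.

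The size of the change followed the length of the message. Over the 43 members the change correlated with log2 coding length at Pearson's r = 0.71 and Spearman's rho = 0.63, across genes, which share the same 6 libraries and are not independent replicates. The 28 members that fell had a median coding length of 409.5 bases and the 15 others one of 651 bases. The same direction held over all 10221 coding genes tested, with r = 0.41 and rho = 0.44 for coding length. For transcript length, r and rho were 0.44 and 0.48 over these genes and 0.51 and 0.48 over the members. Among all genes tested, those with transcripts longer than 500 and up to 1000 bases had a median change of −0.45. Those with transcripts over 4000 bases had one of 0.22. Among coding lengths of 301 to 600 bases, 20 of 25 members were lower (80.0%), beside 15 of 20 proteins of the small subunit (75.0%) and 23.1% of 1145 genes outside these ribosomal lists. Between 601 and 900 bases 4 of 10 members were lower, beside 2 of 8 small subunit proteins and 10.8% of 1430 genes outside the lists. Of the 3 members with longer coding sequences (Rplp0, Rpl3 and Rpl4) none was lower, with no unadjusted p under 0.05 among them. Up to 300 bases 4 of 5 members were lower, beside 1 of 4 small subunit proteins and 40.1% of 237 genes outside the lists. Whether this trend belongs to the diet or to the sets of libraries cannot be told apart.

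**Figure D4:**
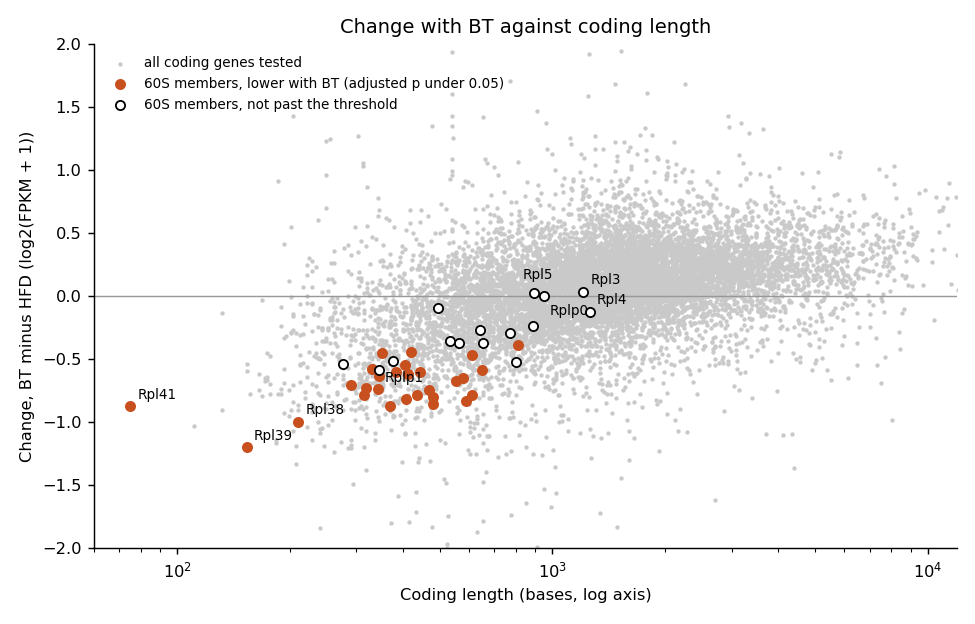
Change with BT (BT minus HFD, log2(FPKM + 1)) against coding length (log axis) for all coding genes tested in grey and the large subunit members, filled where lower with BT and open where not past the threshold. Genes outside the axis ranges are not drawn. Short messages lie lower throughout, and Rpl39, Rpl38 and Rpl41, the shortest members, lie at −1.20, −0.996 and −0.87.

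With the trend of change on transcript length and GC content over all genes taken out, the 60S members remained lower, in smaller number and by less. In that fit 13 members were lower and none higher, where 4.78% of all genes were lower. Their median change was −0.29, with 37 of 43 negative, beside 50.0% negative over all genes. The 13 were Rpl15, Rpl17, Rpl19, Rpl21, Rpl22, Rpl23a, Rpl27, Rpl29, Rpl35, Rpl36a, Rpl37, Rpl38 and Rpl39, all lower before removal too. Coding length in place of transcript length also gave 13 (3.94% of all genes), and a trend fitted without ribosomal protein genes gave 14 (4.93%), and 11 members were lower in all 3 fits. Removal of the transcript length trend did not take out all dependence on coding length. Over the 43 members Pearson's r with log2 coding length was still 0.54, and it was 0.21 with the coding length trend removed. Rpl41 changed by −0.47 (adjusted p = 0.0531) with transcript length and by −0.14 (adjusted p = 0.688) with coding length taken out. Rplp1, the most abundant member, changed by −0.31 (adjusted p = 0.113). Before any trend was removed, Pearson's r between the change and log2 mean FPKM was −0.04 over the 43 members.

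**Figure D5:**
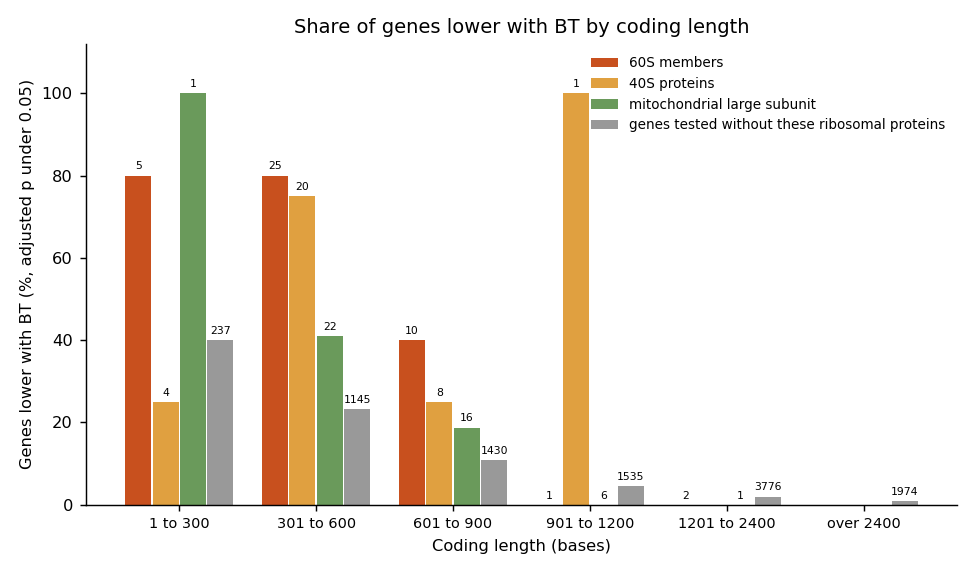
Percent of genes lower with BT (adjusted p under 0.05) by coding length in bases, for large subunit members, small subunit proteins, mitochondrial large subunit proteins and the genes tested outside these lists, with the number of genes above each bar. A missing bar with a number stands for 0%. Between 301 and 600 bases the shares are 80.0% for the large subunit members and 23.1% for genes outside the lists.

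Promoters of the listed genes carried the features known of ribosomal protein genes. RefSeq (GRCm38.p6) gave 40 windows of 300 bases for 34 of the 45 listed genes, Rpl13 and Rpl24 included. The windows ran from 250 bases before to 50 after the start. A run of 8 or more pyrimidines (C or T), on the strand that reads as the mRNA and within 25 bases of the start, was present in 52.5% of these, against 19.7% of all 32851 windows. The letters CTTTCC in the same stretch and strand, which can be part of such a run, stood in 8 of the 40 windows against 2.46% of all, and CCGGAA on either strand of the window, the core bound by GABP-type factors, in 47.5% of the 40 against 14.9%. TATAAA in the 50 bases before the start, on the strand that reads as the mRNA, was in 0 of the 40 windows and in 2.63% of all. In Rplp0 (printed below) and Rpl36a, TATAAA stands after the RefSeq start, where it was not counted. These features therefore depend on the starts that RefSeq gives. By response, 11 of 19 members with such a run of pyrimidines and 8 of 13 without one were lower with BT, with median changes of −0.58 and −0.60. Shown are 60 bases before to 30 after the start, longest pyrimidine run near the start in capitals, for 3 members that fell (Rpl38, Rpl35, Rpl15) and 2 that did not pass (Rpl4, with a run of 14, and Rplp0, with 7). Rpl4 holds CTTTCC there as do the 3 that fell, and Rplp0 does not. They are at chr11:114668520-114668609 (plus strand), chr2:39005102-39005191 (minus), chr14:18270957-18271046 (minus), chr9:64173327-64173416 (plus) and chr5:115559407-115559496 (plus).
Rpl38: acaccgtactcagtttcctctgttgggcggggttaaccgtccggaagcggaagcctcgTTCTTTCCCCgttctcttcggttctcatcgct
Rpl35: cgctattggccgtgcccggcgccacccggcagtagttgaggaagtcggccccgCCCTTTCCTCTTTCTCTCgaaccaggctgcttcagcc
Rpl15: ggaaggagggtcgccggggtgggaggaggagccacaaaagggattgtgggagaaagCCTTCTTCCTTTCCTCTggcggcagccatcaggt
Rpl4: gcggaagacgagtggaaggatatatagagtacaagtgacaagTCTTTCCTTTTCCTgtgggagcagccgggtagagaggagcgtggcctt
Rplp0: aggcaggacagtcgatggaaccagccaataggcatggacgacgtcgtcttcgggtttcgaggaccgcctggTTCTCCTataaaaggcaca

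Proteins of the small subunit and of the mitochondrial ribosome were measured beside the members. Among 33 proteins of the small subunit 19 fell and none rose (26 and 0 by unadjusted p), with a median of −0.56, led by Rps23, a decoding-centre protein, which had 162, 173 and 189 FPKM in BT livers, against 324, 394 and 311 FPKM in HFD livers (−0.97 ± 0.12, adjusted p = 0.0063). Rps12 and Rps15 fell by 1.01 and 0.89. Of 46 mitochondrial large subunit proteins, made by nuclear genes for a separate ribosome, 13 fell and none rose (26 and 1 by unadjusted p), with a median of −0.30 and 35 of the 46 negative, and Mrpl54, Mrpl53 and Mrpl20 fell by 1.10, 0.66 and 0.63. Rpl36al, a paralog of Rpl36a, fell by 0.42 ± 0.11 (adjusted p = 0.0377).

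Factors that assemble the large subunit showed few calls, where 13.3% of all genes tested passed in either direction. Of 61 genes for pre-60S assembly and export, 2 fell and 1 rose, and the median change was 0.02. Median coding length was 1509 bases in this list and 468 in the 60S members. Over all genes tested with coding lengths of 1201 to 2400 bases, 1.96% were lower and 7.07% higher. With the length and GC trend removed, the list had 2 lower and 1 higher, with a median of −0.07. Zfp622, the counterpart of yeast Rei1, which acts in late cytoplasmic maturation, had 4.66, 3.63 and 4.06 FPKM in BT livers, against 7.94, 8.01 and 7.25 FPKM in HFD livers (−0.77 ± 0.12, adjusted p = 0.0104). Nop16, a nucleolar assembly factor, fell by 0.45 ± 0.11 (adjusted p = 0.0352), and Rrp1b, a nucleolar protein, rose by 0.76 ± 0.12 (adjusted p = 0.0120).

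Regulators of ribosome production were read beside all genes tested, of which 13.3% passed in either direction. Of 15 genes for mTORC1 and 5′TOP regulation, Akt1s1, which encodes the mTORC1 inhibitor PRAS40, fell by 0.59 ± 0.09 (adjusted p = 0.0111), and Eif4ebp2, a translation repressor that mTORC1 phosphorylates, rose by 0.62 ± 0.16 (adjusted p = 0.0406). Mtor itself changed by 0.58 ± 0.19 (adjusted p = 0.0707). Of 15 factors for ribosomal DNA transcription and ribosomal protein promoters, 1 fell and none rose (1 and 1 by unadjusted p): Polr1d, a subunit shared by RNA polymerases I and III, changed by −0.36 ± 0.10 (adjusted p = 0.0463), while Sp1 and Myc changed by 0.34 ± 0.11 and 1.16 ± 0.58 (adjusted p = 0.0767 and 0.198), with 19.4 FPKM of Myc in BT replicate 1 and at most 4.16 FPKM in any other library. Of the 4 genes listed for ribosomal stress sensing through Rpl5 and Rpl11, Cdkn1a changed by −1.84 ± 0.31 (adjusted p = 0.0134). This p53 target encodes the cell cycle inhibitor p21. It had 1.28, 0.745 and 1.82 FPKM in BT livers, against 5.47, 4.84 and 12.5 FPKM in HFD livers. Free Rpl5 and Rpl11 proteins were not measured. Mdm4 and Trp53 changed by 1.00 ± 0.30 and −0.09 ± 0.14 (adjusted p = 0.0603 and 0.684). None of 6 elongation factor genes passed by limma (2 lower and 1 higher by unadjusted p), with Eef2, which the stalk recruits, at 0.43 ± 0.13 (adjusted p = 0.0619), and Eef1b2 and Eef1d both at −0.33.

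Markers of liver cell types can be set beside the 13.3% of all genes tested that passed in either direction. Of 9 hepatocyte markers, 1 fell (Ttr, −0.76 ± 0.14, adjusted p = 0.0157) and none rose (2 and 1 by unadjusted p). Of 6 stellate cell markers tested, 1 fell (Col3a1, −1.36 ± 0.34, adjusted p = 0.0354) and none rose (3 and 0 by unadjusted p). All 6 changes were negative, with a median of −0.42, and 3 of the 6 were lower with the length and GC trend removed. The summed stellate markers were 70.4 to 93.0 FPKM in BT livers and 96.6 to 153 FPKM in HFD livers, with Lrat listed at 0. Among 11 Kupffer cell and macrophage markers none passed in either direction by limma (0 lower and 3 higher by unadjusted p), with sums of 124 to 165 FPKM with BT and 127 to 174 FPKM with HFD. None of 6 sinusoidal endothelial, 3 lymphocyte, 5 red blood cell, 1 cholangiocyte and 1 adipocyte markers tested passed (1 endothelial lower by unadjusted p and no other). Of 5 pancreas markers 4 are listed at 0 throughout, and Cela1, the other, was lower with BT at 2.45 to 4.09 FPKM, against 5.09 to 6.25 FPKM with HFD (−0.67 ± 0.16, adjusted p = 0.0322). The part of these markers in the result was not tested.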

How the data were processed

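Per the labels' protocols, liver RNA was extracted with TRIZOL and mRNA libraries were made with a TruSeq kit. The authors deposited 1 table of gene FPKM, fragment counts scaled by transcript length and library size, with 1 column per library. Tools in the submitters' processing notes are Cufflinks 2.1.1, STAR 2.4.0 and CASAVA 1.8.2, whose roles are not stated. Build, annotation release and strandedness of the counting were not given in the sources used here. FPKM divides by an effective length, so the values of short genes depend on the fragment lengths assumed.

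Groups and replicate numbers came from the titles. Names, coordinates (1-based), lengths and GC contents came from GENCODE M21 (GRCm38), which named 22671 of 23474 identifiers and may not be the authors' release. Genes averaging 1 FPKM or more were tested as log2(FPKM + 1) in limma 3.58.1 (R 4.3.3, lmFit and eBayes with a variance trend), two-sided, 3 BT against 3 HFD libraries, with Benjamini-Hochberg adjustment over 10476 genes and a threshold of 0.05. A fold change on this scale understates that of low genes. Each change is BT minus HFD, and a value after ± is its SE. The mean summed levels of the members are given with their SD. With 3 libraries a side, exact permutation of 1 gene reaches p = 0.1 at best. The trend of each library's values on transcript length and GC content was removed with splines of 5 degrees of freedom. Pseudogenes were found with BLAST+ 2.17.0. Library depth was estimated from the FPKM that 1 fragment is worth and is rough.

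On simulated data with 200 of 10476 genes changed, the test recovered 93% of changes of 1 and 100% of changes of 2 on the log2 scale, and 3.98% of its calls were false. The simulated noise was independent between genes. Shifts shared by many genes of a library, or a trend with length, were not simulated, so the share of false calls in the real data is not known from this. There were 19 alternatives in the plan and 4 were added after seeing the data. Some results are withheld and not reported here. The members and gene lists were chosen with earlier results of these data known. Every library value is given for the 8 members with the largest changes among those past the threshold without overlap, for the stalk, for the 2 highest and 2 lowest by mean FPKM, for the 3 most positive, and for Rpl5, Rpl10, Rpl11, Rpl13a, Rpl22 and Rpl41, and from each other list the 3 genes of smallest p are named. Rpl4, Rpl12 and the groups by role were chosen after their values were seen.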

Additional observations from a re-analysis of the deposited data

How the results depend on the processing

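None of the settings tried turned a 60S member that was lower with BT to higher, and the count of members higher stayed at 0. Members lower numbered 24 to 29 under the other pseudocount, the 5 FPKM filter, the other scalings, summed pseudogenes and the other variance estimates. With no filter on low values, a fit in which more genes were tested, they numbered 18. The counts also moved there for all genes (345 lower, 200 higher), small subunit proteins (9), mitochondrial proteins (5), pre-60S factors (1), paralogs (0), and promoter factors lower and mTORC1 regulators higher (0 each). With the length and GC trend removed, members lower were 13 and their median −0.29, and the counts were 497 lower and 358 higher of all genes, 8 small subunit and 7 mitochondrial (1 higher), with 0 for paralogs and promoter factors lower and mTORC1 regulators higher. With coding length they were 13 (median −0.29), 403, 367, 6 (1 higher) and 3, with 1 pre-60S factor and 0 for paralogs, promoter factors and mTORC1 regulators lower. With ribosomal protein genes left out of the trend they were 14 (median −0.30), with 355 of all genes higher, 8 and 7 (1 higher), and the same zeros as with transcript length. Under other scalings, counts moved by over 1.5 times in lists with few calls: paralogs to 0 and pre-60S factors lower to 1, promoter factors and mTORC1 regulators higher to 0 (TPM), and elongation factors higher to 1 (quantile, paralogs 0). The share of higher among all calls shifted with scaling, from 630 higher and 768 lower to 611 and 547 (TPM), 458 and 862 (median of ratios) and 682 and 888 (quantile). The 5 FPKM filter left 0 pre-60S factors higher and 0 stress genes lower, array weights gave 1 stress gene higher, and no variance trend gave 0 promoter factors lower. The cause of these moves was not tested.

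Changes that turned sign were all of genes not past the threshold in the reported fit. With the trend removed, Rpl18 came to 0.049 (0.031 with the trend fitted without ribosomal genes), Rpl8 to 0.082 (0.069), Rpl10 to 0.066 (0.050), Rpl12 to 0.13 (0.12) and Rpl5 to −0.066 (−0.067), and with coding length Rpl12 came to 0.16, Rpl5 to −0.049 and Rpl3 to −0.013. Median-of-ratios scaling gave −0.066 for Rplp0, −0.045 for Rpl5 and −0.034 for Rpl3. Quantile normalization gave 0.077 for Rpl4, array weights −0.0039 and pseudogenes summed without scaling by length −0.013 for Rpl5.

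Leaving out 1 library at a time, the ranges were 3 to 29 members lower, 125 to 816 genes lower and 48 to 857 higher, 1 to 20 small subunit and 1 to 15 mitochondrial proteins lower, 1 to 3 pre-60S factors lower, and 0 to 1 for paralogs lower, pre-60S factors higher, mTORC1 regulators lower or higher, promoter factors lower, stress genes lower or higher, and elongation factors lower or higher. The lowest counts came without BT replicate 1. Changes ran from −0.21 to 0.029 for Rpl12, −0.060 to 0.31 for Rpl22l1, −0.0016 to 0.089 for Rpl3, −0.037 to 0.12 for Rpl5, −0.090 to 0.079 for Rplp0 and −0.23 to 0.0104 for Trp53.

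The labels give both diets the numbers 1 to 3, but deviations of same-numbered libraries correlated at 0.163, 0.0972 and 0.147, which does not establish pairing, although each library correlated best with its own number. With the replicate block, 33 members were lower, 3 mTORC1 regulators and 1 stress gene were higher, and 0 promoter factors were lower. The block together with the length and GC trend removed gave 11 members (median −0.29), 454 genes lower and 317 higher, 8 small subunit, 5 mitochondrial (1 higher), 0 for paralogs, promoter factors and mTORC1 regulators in either direction, and the sign changes of the trend fit (Rpl18 0.049, Rpl8 0.082, Rpl10 0.066, Rpl12 0.13, Rpl5 −0.066).

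FPKM without counts leaves the depth behind each value as an estimate. The fragments of a member and its pseudogenes cannot be divided again from this table.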
